A study of Mus musculus with 6 samples.

Results

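The genes described here encode the disaccharidases of the small intestinal brush border, the enzymes that split dietary sugars into monosaccharides at the surface of enterocytes. They are Lct (lactase), Sis (sucrase-isomaltase), Mgam (maltase-glucoamylase) and Treh (trehalase), 4 of the 54012 genes in the deposited table. They were chosen by gene name, and all 4 were among the 13458 genes that averaged 1 or more TPM (transcripts per 1000000, a unit explained below) and were tested. Total RNA from small intestine samples of 6 mice was sequenced; the mice were 8 to 12 weeks old, and 3 carry the label wild type (WT) and 3 the label TLR4ΔIEC. The title of the series names the depletion of intestinal TLR4, the receptor for bacterial lipopolysaccharide, as the change under study. The labels give neither the promoter that drives the deletion, nor the sex or strain of the mice, nor the stretch of small intestine taken. TPM are transcript abundances corrected for transcript length, with the same total for each library, so read depth is unknown.

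Lactase hydrolyses the lactose of milk and is anchored in the apical membrane of enterocytes. In mammals its expression is high during suckling and declines after weaning, when sucrase-isomaltase and trehalase increase. Sucrase-isomaltase and maltase-glucoamylase are related enzymes that digest sucrose and the oligosaccharides left by amylase. Trehalase, from a separate enzyme family, splits trehalose, a sugar of fungi and insects. Along the intestine lactase is most abundant in the jejunum and scarce in the terminal ileum. The released glucose and galactose enter the enterocyte through the sodium-dependent transporter SGLT1, and fructose enters through GLUT5.

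Tlr4, the targeted gene, was at 0.65, 0.57 and 0.70 TPM in WT, against 1.29, 1.22 and 4.81 TPM in TLR4ΔIEC. With a log2 fold change of 0.92 (SE 0.40, limma adjusted p = 0.243), it was not lower under the TLR4ΔIEC label, so the level of the targeted gene did not check the labels, and each direction below refers to the libraries as labelled. TLR4ΔIEC replicate 2 stood apart, with 12221 genes that reached 1 TPM, where the others had 13197 to 13634, and with the 18S ribosomal gene Rn18s at 12836 TPM against 3806 to 7032 TPM. Transcripts of the epithelial keratins and of villin were abundant in each library, and those of a pancreatic list summed to at most 0.48 TPM. The labels' protocols do not say whether replicates of a genotype came from separate litters or cages, so p-values measure the spread between these mice alone.

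The stretches just upstream of 3 of the genes are shown because factors of the GATA and CDX families are known regulators of lactase and sucrase-isomaltase in the intestine, and transcripts of these factors are described further on. Each is the 250 bases before the start of the gene in the RefSeq table (GRCm38.p6), written 5′ to 3′ on the strand of the gene. All 4 genes matched the table by symbol. Capitals mark matches on either strand. Those for the GATA family are GATAA. For the CDX family they are TTTAT and, in a second form, TTTAC, and neighbouring matches can run together.
Lct, chr1:128328319-128328568, minus strand: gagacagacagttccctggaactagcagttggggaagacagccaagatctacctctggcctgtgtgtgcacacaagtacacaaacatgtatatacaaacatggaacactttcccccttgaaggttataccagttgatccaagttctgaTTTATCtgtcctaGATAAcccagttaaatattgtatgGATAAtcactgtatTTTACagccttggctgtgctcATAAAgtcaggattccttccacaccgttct
Sis, chr3:72967864-72968113, minus strand: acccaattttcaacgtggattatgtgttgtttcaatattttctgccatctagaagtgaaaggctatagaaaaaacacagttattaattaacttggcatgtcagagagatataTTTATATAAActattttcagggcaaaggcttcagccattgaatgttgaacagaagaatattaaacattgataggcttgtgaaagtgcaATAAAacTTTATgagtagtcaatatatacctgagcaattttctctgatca
Mgam, chr6:40628581-40628830, plus strand: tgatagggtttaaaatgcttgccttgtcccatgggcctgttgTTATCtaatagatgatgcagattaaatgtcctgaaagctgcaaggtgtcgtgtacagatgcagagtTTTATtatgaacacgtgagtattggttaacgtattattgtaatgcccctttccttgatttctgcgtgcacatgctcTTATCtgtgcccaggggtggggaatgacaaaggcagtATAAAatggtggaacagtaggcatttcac
The Lct stretch held GATAA 3 times, TTTAT 2 times and TTTAC 1 time. The matches to GATAA lay 101 to 97, 89 to 85 and 65 to 61 bases before the start, and the first of them overlapped a TTTAT. The Sis stretch held TTTAT 4 times, with no GATAA. The Mgam stretch held GATAA 2 times and TTTAT 2 times. The Treh stretch, at chr9:44672983-44673232 on the plus strand, held none of these letters. The letters are short and common: of 32851 stretches of the same length in the table, 22.6% held GATAA, 51.2% held TTTAT or TTTAC, and 17.2% held a match to both families, as Lct and Mgam did. A search for TATAAA, which contains TTTAT on the opposite strand, matched Sis 2 times, Mgam 1 time, and Lct and Treh not at all, against 12.4% of all stretches with a match. A match is a run of letters and not a measured binding site.

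Lactase transcripts were nearly absent from the libraries labelled TLR4ΔIEC, while the transcripts of the other disaccharidases were not. Lct fell, Sis and Mgam overlapped between genotypes in TPM as deposited, and Treh was higher in each library labelled TLR4ΔIEC without passing the test. Among all tested genes 0.0743% were called lower and 0.0446% were called higher by limma at an adjusted p below 0.05. Among the disaccharidases 1 of 4 was called, Lct in the lower direction, a direction that was known when the genes were chosen. Most lists below also give counts at an unadjusted p under 0.05. Of all 13458 tested genes 2847 passed that cut, both directions together. In bulk RNA of this kind, fewer cells of a type and less RNA per cell cannot be told apart.

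Lct (ENSMUSG00000026354, GRCm38 chr1:128284756-128328318, minus strand) stood at 67.4, 60.1 and 21.5 TPM in WT replicates 1, 2 and 3. In the libraries labelled TLR4ΔIEC it stood at 0.17, 0.87 and 0.52 TPM. The groups did not overlap: the lowest WT library, replicate 3, lay far above the highest library labelled TLR4ΔIEC, replicate 2. Lct averaged 49.6 ± 24.7 TPM in WT and 0.520 ± 0.350 TPM in TLR4ΔIEC (SD, n = 3 each), a 95.5-fold difference of the means. On the log2(TPM + 1) scale, which understates changes of low levels, Lct fell by 4.93 (SE 0.43, 95% interval −5.95 to −3.91, limma adjusted p = 0.0316). This was the most negative fold change of the 13458 tested genes. By an exact permutation test (two-sided, on TPM) p was 0.1, and 3 libraries against 3 allow no smaller value. The call did not hold in each setting: the adjusted p was 0.0928 without WT replicate 2, 0.0650 without TLR4ΔIEC replicate 2, 0.0521 without TLR4ΔIEC replicate 3 and 0.0978 with no filter on low genes, with fold changes of −5.09 to −4.71 on the log2 scale.

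Seen by rank among all 54012 listed genes, Lct was the 1462nd, 1618th and 3691st most abundant transcript of WT replicates 1, 2 and 3. It was the 17517th, 12511th and 15082nd in TLR4ΔIEC replicates 1, 2 and 3. A gene that belonged to the well expressed transcripts of each WT library thus stood below 1 TPM in each library of the other genotype.

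**Figure D1:**
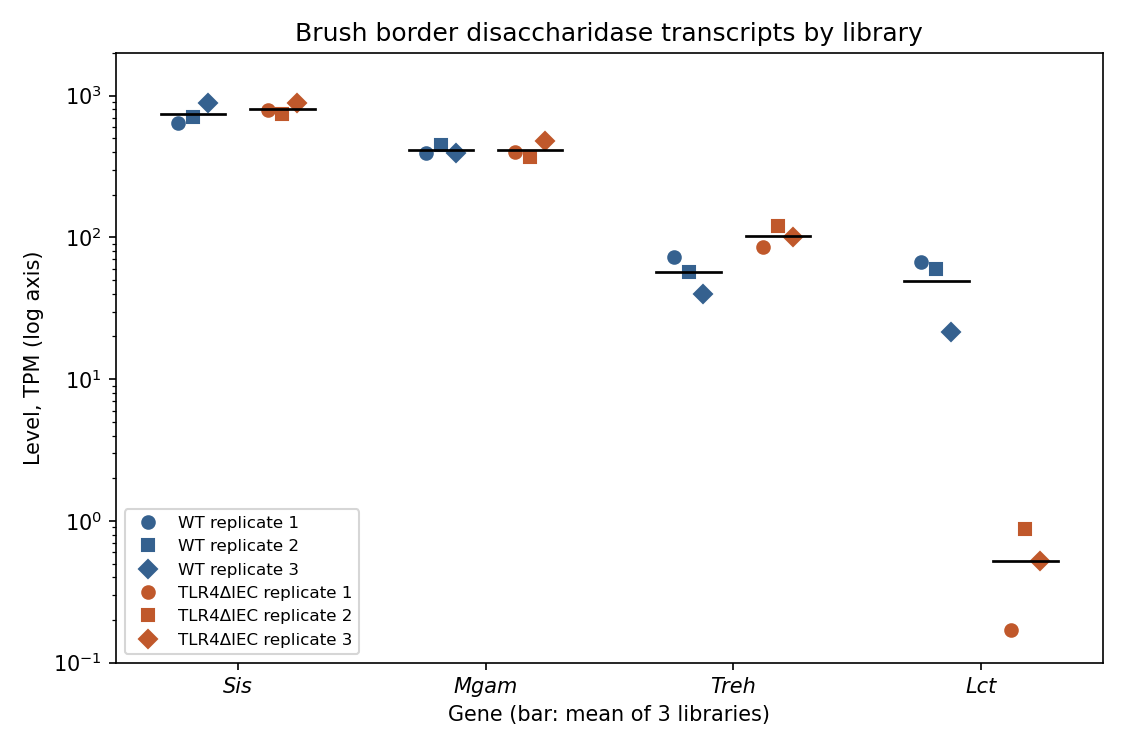
Levels of the 4 disaccharidase transcripts in TPM (vertical log axis) in each of the 3 WT and 3 TLR4ΔIEC libraries, with bars at the means of 3 libraries. Lct points are at 21.5 to 67.4 TPM in WT and at 0.17 to 0.87 TPM in TLR4ΔIEC, whereas the points of Sis and of Mgam overlap between genotypes and those of Treh lie higher in TLR4ΔIEC.

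Sis (ENSMUSG00000027790, GRCm38 chr3:72888557-72967863, minus strand), the most abundant of the 4, was present at 642, 711 and 882 TPM in WT. In the libraries labelled TLR4ΔIEC it stood at 796, 737 and 884 TPM, within or just above the WT range. Sis averaged 745 ± 123 TPM in WT and 806 ± 74.1 TPM in TLR4ΔIEC (SD, n = 3 each). The log2 fold change was 0.12 (SE 0.18, 95% interval −0.31 to 0.56, limma adjusted p = 0.748), and it turned to −0.03 with median-of-ratios scaling, −0.15 with quantile normalization and −0.20 with TPM rescaled without alpha-defensin, mitochondrial and 18S-like genes. Sis ranked between the 131st and the 221st most abundant transcript in each of the 6 libraries.

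Mgam (ENSMUSG00000068587, GRCm38 chr6:40628831-40769123, plus strand) stood at 396, 451 and 397 TPM in WT. In the libraries labelled TLR4ΔIEC it stood at 398, 367 and 480.2 TPM, a range that spans the WT values on both sides. Mgam averaged 415 ± 31.6 TPM in WT and 415 ± 58.4 TPM in TLR4ΔIEC (SD, n = 3 each), with a log2 fold change of −0.01 (SE 0.16, 95% interval −0.39 to 0.38, limma adjusted p = 0.989), and −0.33 to −0.16 under the 3 other scalings. After rescaling without alpha-defensin, mitochondrial and 18S-like genes, which gave −0.33, the Mgam groups no longer overlapped (lower in TLR4ΔIEC, limma adjusted p = 0.449). In TPM as deposited both α-glucosidases had intervals that hold 0 and reach no further than 0.56 on the log2 scale in either direction. Small differences therefore remain possible, and no intervals are given for the other scalings. Beside Mgam, 9587 bases beyond its end, lies Mgam2-ps, a transcribed pseudogene of the same family. Mgam2-ps averaged 27.9 ± 1.35 TPM in WT and 45.1 ± 8.29 TPM in TLR4ΔIEC, without overlap (log2 fold change 0.66, SE 0.17, limma adjusted p = 0.112). How reads common to the pair were divided between them is not stated by the labels or notes, so the split is uncertain.

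Treh (ENSMUSG00000032098, GRCm38 chr9:44673233-44686305, plus strand) had higher values under the TLR4ΔIEC label. The WT libraries held 73.2, 56.6 and 40.2 TPM, and TLR4ΔIEC replicates 1, 2 and 3 held 85.1, 120.7 and 99.85 TPM. Each library labelled TLR4ΔIEC lay above each WT library, with averages of 56.6 ± 16.5 TPM in WT and 101.9 ± 17.9 TPM in TLR4ΔIEC (SD, n = 3 each), a ratio of 1.80. The log2 fold change was 0.86 (SE 0.24, 95% interval 0.29 to 1.43), but the limma adjusted p of 0.127 did not pass the threshold, and the exact permutation p was 0.1. Groups apart in this way were common in the table: 24.1% of all tested genes lay without overlap in the higher direction and 3.53% in the lower direction, which among the disaccharidases held for Treh and for Lct. The higher share depended on scaling, at 10.8% after median-of-ratios scaling and 6.13% after rescaling without alpha-defensin, mitochondrial and 18S-like genes. The log2 fold change of Treh stayed positive, from 0.54 to 1.07, over the 15 alternatives tried, and did not pass in any of them (adjusted p 0.0847 to 0.403).

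**Figure D2:**
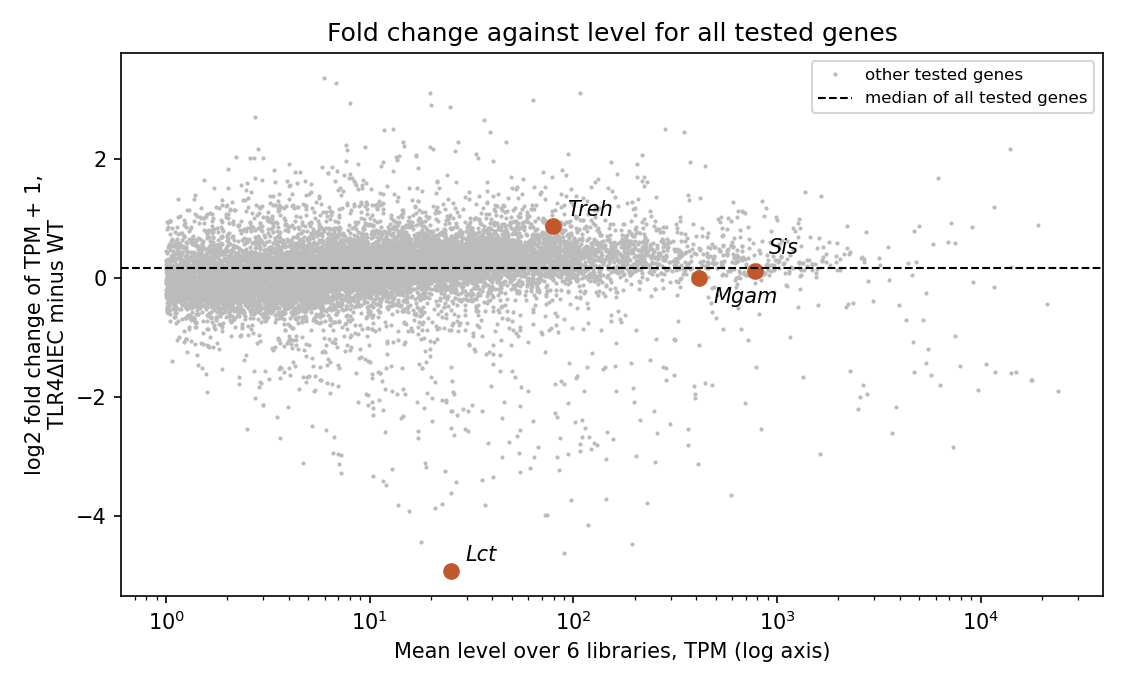
Log2 fold change of TPM + 1, TLR4ΔIEC minus WT (vertical axis), against the mean level over 6 libraries in TPM (horizontal log axis) for the 13458 tested genes, with the 4 disaccharidases marked and the median of all tested genes, 0.16, as a dashed line. Lct lies at −4.93, below each other tested gene, Treh at 0.86, and Sis and Mgam near 0.

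As a sum, the transcripts of the 4 disaccharidases came to 1179, 1279 and 1340 TPM in WT. The libraries labelled TLR4ΔIEC had 1279, 1226 and 1465 TPM, and the averages were 1266 ± 81.3 and 1323 ± 125 TPM (SD, n = 3 each, exact permutation p = 0.6). The make-up of this sum differed at its minor parts. Lct made up 5.71%, 4.70% and 1.60% of it in the WT libraries and 0.0133%, 0.0710% and 0.0355% in the libraries labelled TLR4ΔIEC. Treh made up 4.54 ± 1.61% in WT and 7.77 ± 1.80% in TLR4ΔIEC (SD, n = 3 each, exact permutation p = 0.1). Sis held 58.6 ± 6.24% and 60.9 ± 1.16%, and Mgam 32.8 ± 2.92% and 31.3 ± 1.41%, in WT and TLR4ΔIEC, so the bulk of the sum was these transcripts in both genotypes.

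Since TPM are corrected for length, the genes can also be ordered by level. In WT the order of the means was Sis, Mgam, Treh and Lct. The ranges of Treh (40.2 to 73.2 TPM) and Lct (21.5 to 67.4 TPM) overlapped, and in WT replicate 2 Lct was the higher of the pair. In TLR4ΔIEC the order was the same and no ranges overlapped, with Lct at the bottom by a wide margin.

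Ratios between these genes within a library do not depend on how the library is scaled. The log2 ratio of Lct to Sis was −4.06 ± 1.14 in WT and −10.88 ± 1.24 in TLR4ΔIEC, a difference of −6.82 (SD, n = 3 each, exact permutation p = 0.1, 0.15 after Benjamini-Hochberg adjustment over 6 pairs). With 1 TPM added to each level the difference was −5.05, since Lct lay below 1 TPM in TLR4ΔIEC. That of Lct to Mgam differed by −6.70 and that of Lct to Treh by −7.58 (−4.92 and −5.79 with 1 TPM added), with the same p-values and no overlap. Treh differed from Mgam as well: the log2 ratio of Mgam to Treh was 2.91 ± 0.44 in WT and 2.03 ± 0.37 in TLR4ΔIEC, without overlap (difference −0.88, exact permutation p = 0.1, adjusted 0.15). The ratio of Sis to Mgam was 0.83 ± 0.28 and 0.96 ± 0.07 on the log2 scale (exact permutation p = 0.4), and that of Sis to Treh overlapped between genotypes (difference −0.75, exact permutation p = 0.3). None of the 6 pairs could reach an adjusted p below 0.1 with 3 libraries a group.

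**Figure D3:**
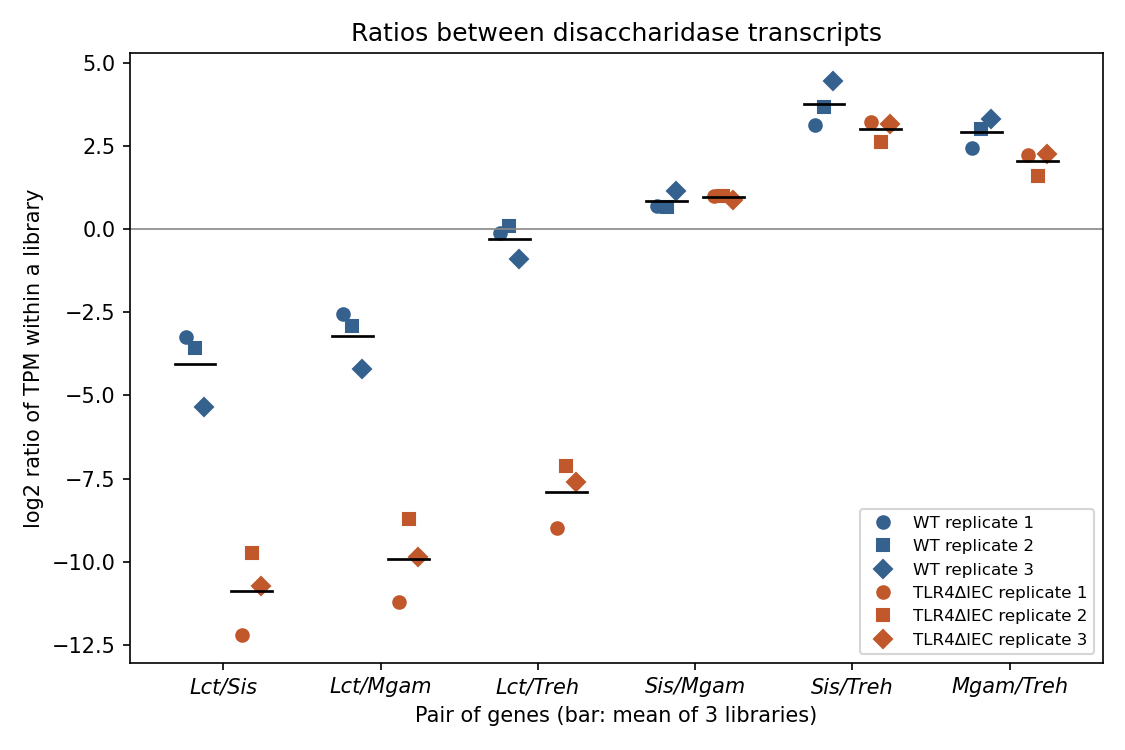
Log2 ratios of TPM within each library (vertical axis) for the 6 pairs of disaccharidase transcripts, with points for the 3 WT and 3 TLR4ΔIEC libraries and bars at their means. The 3 pairs that hold Lct differ by −7.58 to −6.70 in TLR4ΔIEC, Mgam to Treh by −0.88, and the other pairs overlap.

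Epithelial genes had higher TPM under the TLR4ΔIEC label, and their mean was therefore set beside the disaccharidases. The mean log2(TPM + 1) of 10 epithelial genes, among them Krt8, Krt19, Epcam and Lgals4, was 9.71 ± 0.06 in WT and 10.20 ± 0.20 in TLR4ΔIEC (SD, n = 3 each, exact permutation p = 0.1), higher in each library labelled TLR4ΔIEC. Of these 10 genes 10 had positive fold changes (68.1% of all tested genes), or 9 after rescaling without alpha-defensin, mitochondrial and 18S-like genes (34.7% of all). Without overlap 8 lay higher, or 2 after that rescaling (24.1% and 6.13% of all). None was called by limma (5 higher at an unadjusted p under 0.05). Their median log2 fold change was 0.48, or 0.16 after that rescaling, beside 0.16 and −0.13 for all tested genes. Whether the share of epithelial RNA differed was not tested. Relative to the epithelial mean within each library, Lct differed by −5.42 (exact permutation p = 0.1) and was still without overlap. Mgam was 0.49 lower relative to it, also without overlap (exact permutation p = 0.1), and the difference of Sis was −0.37 (exact permutation p = 0.2). Treh was 0.38 higher relative to it, but the groups then overlapped (exact permutation p = 0.2). After adjustment over the 4 genes each of these p-values was 0.2. Relative to these epithelial genes, neither α-glucosidase had a higher mean in TLR4ΔIEC.

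The genes next to Lct on chromosome 1 overlapped between genotypes. Mcm6, a replicative helicase subunit whose human counterpart carries the enhancer of lactase persistence, lies 3271 bases upstream of Lct and averaged 29.1 ± 2.48 TPM in WT and 22.0 ± 7.49 TPM in TLR4ΔIEC (log2 fold change −0.43, limma adjusted p = 0.335). Ubxn4, 5377 bases beyond the other end, averaged 20.1 ± 1.47 and 22.0 ± 1.72 TPM (log2 fold change 0.13, limma adjusted p = 0.632). Phldb1, which overlaps the end of Treh by 2 bases on the opposite strand, averaged 13.5 ± 2.35 and 18.9 ± 0.618 TPM, without overlap between genotypes (log2 fold change 0.47, limma adjusted p = 0.164). Neither labels nor notes say whether reads were counted by strand.

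Relatives of the disaccharidases were put in a single list of 15 genes together with the amylases. Of these 15 genes 5 were tested, and none was called by limma in either direction (1 at an unadjusted p under 0.05). The median log2 fold change of the 5 was −0.02, beside 0.16 for all tested genes. Ganab, the α-subunit of the endoplasmic reticulum glucosidase, averaged 58.8 ± 4.28 TPM in WT and 67.2 ± 4.65 TPM in TLR4ΔIEC. Gaa, the lysosomal α-glucosidase, averaged 9.32 and 8.98 TPM, and Myorg, a glycosidase of the same family, 5.51 and 4.52 TPM. The lactase relatives Lctl, Kl and Klb and the amylase genes were each below 1 TPM in each library. Of them, 5 amylase genes were listed at 0 in all libraries.

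Several transporters that carry the released sugars had lower levels under the TLR4ΔIEC label, although none passed the test. Of 10 sugar transporters, all tested, none was called by limma in either direction (5 lower and 1 higher at an unadjusted p under 0.05), 6 had negative fold changes, 5 lay lower without overlap and 1 higher (3.53% and 24.1% of all tested genes), and the median log2 fold change was −0.57 beside 0.16 for all tested genes. Slc5a1, which encodes SGLT1, the apical glucose and galactose transporter, had 467, 637 and 524 TPM in WT, against 401, 404 and 399 TPM in TLR4ΔIEC (log2 fold change −0.42, limma adjusted p = 0.205). The values of the libraries labelled TLR4ΔIEC were close together and below each WT value. Slc2a5, which encodes the fructose transporter GLUT5, averaged 38.3 ± 10.8 and 21.9 ± 3.38 TPM (log2 fold change −0.75, adjusted p = 0.141). Slc5a4a, an SGLT family member, averaged 26.8 ± 4.50 and 9.40 ± 5.04 TPM (log2 fold change −1.51, adjusted p = 0.0971). Slc2a9, a urate transporter of the GLUT family, averaged 19.6 and 21.1 TPM and overlapped. Chosen after their values were seen, Slc2a2, the GLUT2 transporter of the basolateral membrane, averaged 25.8 and 9.21 TPM, and Slc5a4b averaged 18.6 and 5.13 TPM, both without overlap (adjusted p = 0.121 and 0.112). With median-of-ratios scaling, quantile normalization and the rescaling 5 of 10 transporters each time lay lower without overlap, beside 8.44%, 8.54% and 12.8% of all tested genes.

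Enzymes that handle sugars inside the cell mostly had positive fold changes in TPM as deposited, a direction that depended on scaling. Of 14 genes of sugar metabolism none was called by limma in either direction (3 higher and 1 lower at an unadjusted p under 0.05), 13 had positive fold changes (68.1% of all tested genes), and the median log2 fold change was 0.26 beside 0.16 for all tested genes. After rescaling without alpha-defensin, mitochondrial and 18S-like genes, 6 of 14 were positive (34.7% of all) with a median of −0.05. Khk, fructokinase, averaged 126 and 154 TPM, and Tkfc, triokinase, 113 and 145 TPM, both with overlap. The 1 negative member, named after its values were seen, was Pck1, a gluconeogenic enzyme, at 52.9 ± 21.9 and 10.5 ± 2.23 TPM (log2 fold change −2.14, adjusted p = 0.0828).

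In the wider list of carbohydrate digestion and absorption, taken from the pathway of that name without the 4 disaccharidases, 30 of 58 genes were tested. None was called by limma (3 higher and 3 lower at an unadjusted p under 0.05). Of the fold changes 17 were positive and 13 negative (68.1% of all tested genes positive), and the median was 0.04 beside 0.16 for all. After quantile normalization 9 were positive and 21 negative (52.5% of all positive). Rescaling without alpha-defensin, mitochondrial and 18S-like genes, where 32 were tested, left 5 positive and 27 negative (34.7% of all positive). The median was then −0.25, beside −0.13 for all tested genes. Atp1b1, a subunit of the sodium pump that powers SGLT1, had overlapping levels, at 724 ± 56.5 and 814 ± 97.7 TPM. Plcb3, a phospholipase C of the same list, averaged 191 and 234 TPM without overlap (log2 fold change 0.29, limma adjusted p = 0.239).

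Among 25 transcription factors of the intestine, 23 were tested and 1 was called, Gata4, in the lower direction. At an unadjusted limma p under 0.05 there were 5 higher and 2 lower. Gata4, a zinc finger factor of the proximal and middle small intestine known to bind the lactase promoter, had 17.3, 31.4 and 17.04 TPM in WT, against 0.23, 1.28 and 2.20 TPM in TLR4ΔIEC. Each library labelled TLR4ΔIEC lay far below each WT library (log2 fold change −3.41, SE 0.39, limma adjusted p = 0.0494). TLR4ΔIEC replicate 1 had both the lowest Gata4 and the lowest Lct. Within WT, replicate 2 had the highest Gata4 and replicate 1 the highest Lct. The part of Gata4 in the difference of Lct was not tested. The call of Gata4 held in 5 of 15 alternatives, with adjusted p from 0.0193 to 0.202, and was kept without TLR4ΔIEC replicate 1 but lost without any other single library (adjusted p 0.0521 to 0.202). The other factors named by rule did not pass: Hnf4a averaged 247 ± 17.2 and 306 ± 29.3 TPM (log2 fold change 0.31, adjusted p = 0.276), Elf3 173 ± 15.8 and 325 ± 94.3 TPM (0.87, adjusted p = 0.112) and Cdx1 107 ± 13.3 and 157 ± 14.5 TPM (0.55, adjusted p = 0.121). Hnf4a turned to −0.02 after rescaling without alpha-defensin, mitochondrial and 18S-like genes. Chosen after their values were seen, because they are further factors of families known to bind the promoters of Lct or Sis, Cdx2 averaged 96.1 and 129 TPM, Gata5 42.5 and 47.0 TPM, and Gata6 20.4 and 20.2 TPM, and none passed. Over the list, 18 of 23 fold changes were positive (68.1% of all tested genes) and the median was 0.32, or 0.03 after that rescaling.

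Other enzymes of the brush border had positive fold changes in 10 of 14 tested, near the 68.1% of all tested genes, and in 7 of 15 after rescaling without alpha-defensin, mitochondrial and 18S-like genes, beside 34.7% of all. Of 17 such enzymes 14 were tested, and limma called 1 lower and none higher (7 higher and 3 lower at an unadjusted p under 0.05). Without overlap 7 lay higher and 2 lower (24.1% and 3.53% of all tested genes). The median log2 fold change was 0.41, or −0.03 after that rescaling. The called gene was Enpp7, the alkaline sphingomyelinase, which fell from 450 ± 105 to 53.8 ± 22.4 TPM (log2 fold change −3.09, limma adjusted p = 0.0350), a call lost without WT replicate 2 (adjusted p 0.158), WT replicate 3 (0.202) or TLR4ΔIEC replicate 2 (0.0650). The peptidases did not pass: Anpep, aminopeptidase N, averaged 3506 ± 525 and 6412 ± 980.1 TPM (log2 fold change 0.87), Naaladl1 895 ± 235 and 2389 ± 922 TPM (1.37), and Mep1b, a meprin subunit, 495 ± 33.7 and 716 ± 110.1 TPM (0.52). The 12 genes of brush border structure all had positive fold changes (68.1% of all tested genes), 11 of them without overlap (24.1% of all), with a median of 0.54 and none called by limma (9 at an unadjusted p under 0.05). Under median-of-ratios scaling 12 of 12 stayed positive (53.7% of all) but 4 lay without overlap (10.8% of all). After rescaling without alpha-defensin, mitochondrial and 18S-like genes 11 of 12 were positive (34.7% of all) and 4 lay higher without overlap (6.13% of all). The median was then 0.22, beside −0.13 for all tested genes. Vil1, villin, averaged 907 ± 52.1 and 1173 ± 190 TPM, Slc9a3r1, a scaffold of the microvillus, 903 and 1180 TPM, Cdhr5, a protocadherin of the microvillus tip, 563 and 1170 TPM, and Myo1a, brush border myosin, 566 and 779 TPM.

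**Figure D4:**
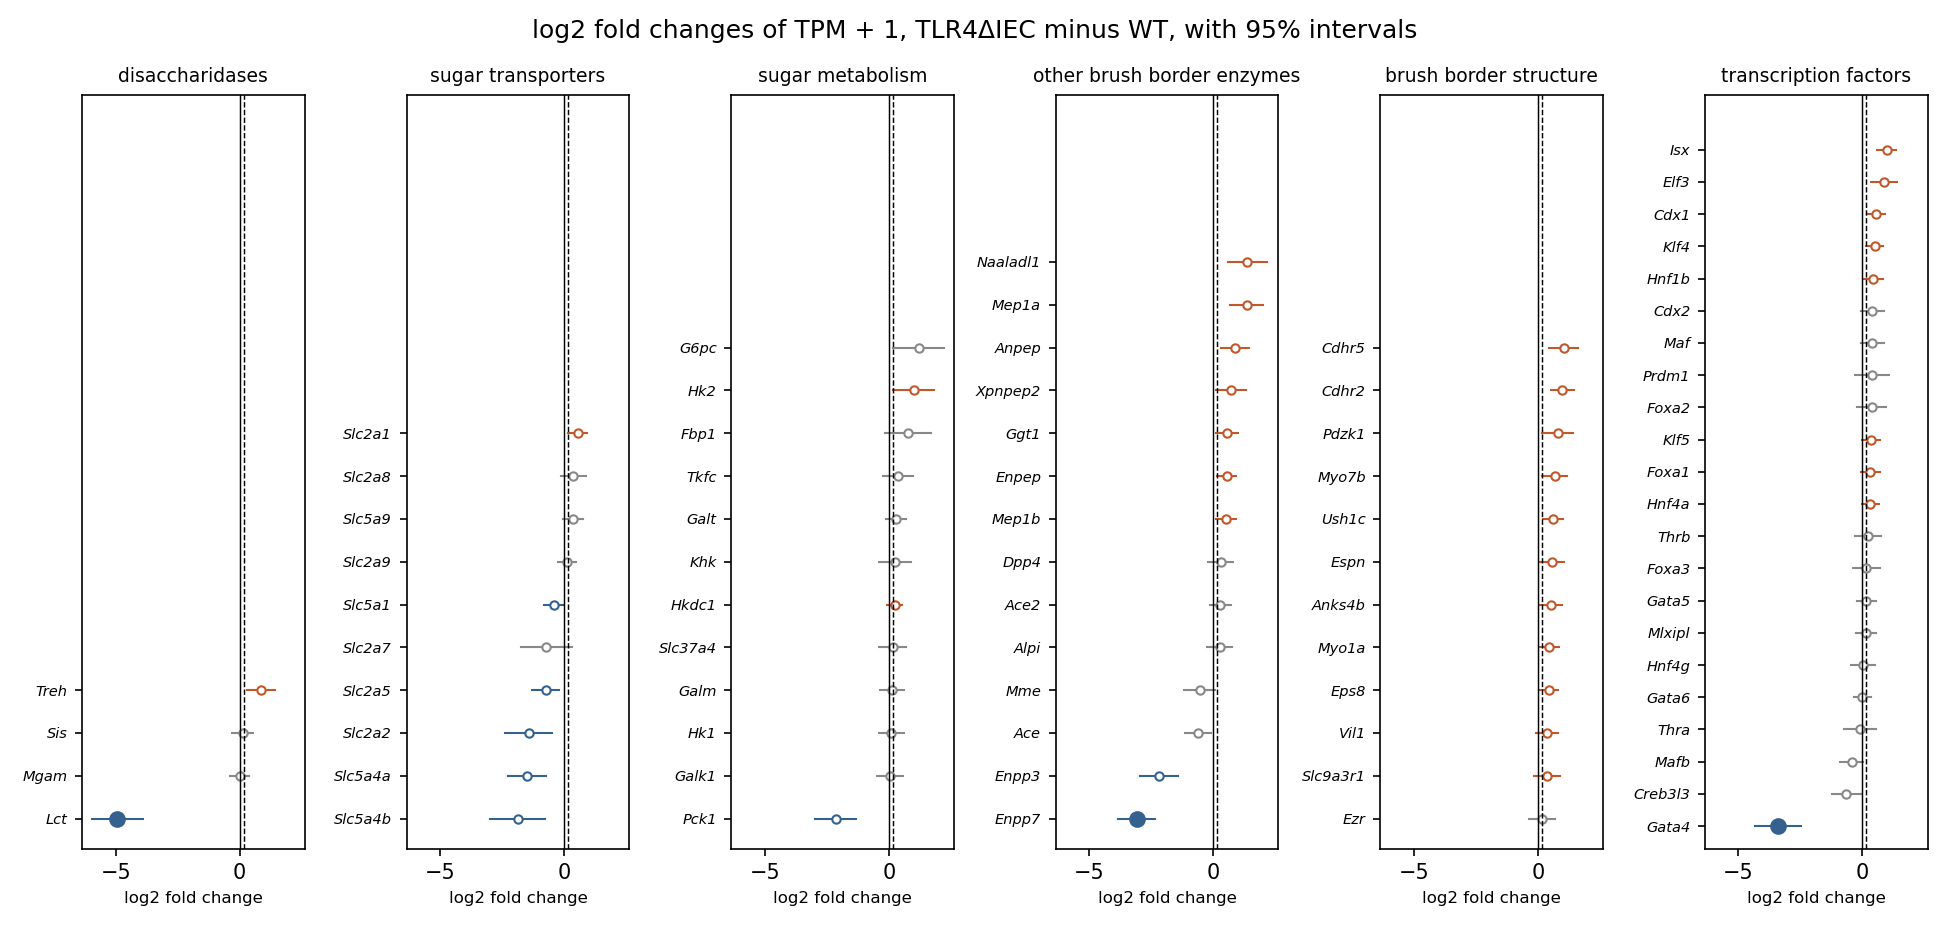
Log2 fold changes of TPM + 1 with 95% intervals (horizontal axes, TLR4ΔIEC minus WT) for most tested genes of 6 lists, with a solid line at 0 and a dashed line at the median of all tested genes. Large filled points passed the test (Lct, Enpp7 and Gata4), blue and orange mark groups lower and higher without overlap, and grey marks overlap. The many small positive shifts, as in brush border structure, are smaller under other scalings, where the median of all tested genes is lower too.

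Genes known for their position along the intestine were set beside Lct, and they did not all differ in its direction. Of 8 genes of the proximal intestine 6 were tested, with Gata4 called lower and S100g, the calcium-binding protein calbindin-D9k, called higher. At an unadjusted limma p under 0.05 there were 2 higher and 3 lower. Without overlap 4 lay lower and 2 higher (over all tested genes 3.53% and 24.1%), and the median log2 fold change was −1.94. The median was −0.35 with no filter, −1.14 with a pseudocount of 5 TPM and −3.21 at a mean of at least 5 TPM, where other members were tested or low levels weighed less. Fabp1, a fatty acid binding protein of the proximal and middle intestine, had 361, 797 and 115 TPM in WT, against 8.50, 17.4 and 72.3 TPM in TLR4ΔIEC (log2 fold change −3.78, limma adjusted p = 0.108). S100g rose from 14.0 ± 6.60 to 112 ± 13.1 TPM (log2 fold change 3.00, limma adjusted p = 0.0350), a call lost without WT replicate 2 (adjusted p 0.0928), WT replicate 3 (0.195), TLR4ΔIEC replicate 2 (0.0721) or TLR4ΔIEC replicate 3 (0.0737). Slc40a1, the iron exporter, averaged 7.39 and 23.8 TPM without passing. Pdx1 and Onecut2, defining factors of the duodenum, were below 0.1 TPM in each library.

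Of 8 ileal genes, all tested, none was called by limma in either direction (6 higher at an unadjusted p under 0.05), 7 had positive fold changes (68.1% of all tested genes), 6 lay higher without overlap (24.1% of all), and the median was 1.06 beside 0.16 for all tested genes. Fabp6, the ileal bile acid binding protein, had 2352, 5212 and 7321 TPM in WT, against 9526, 34630.4 and 24710.4 TPM in TLR4ΔIEC (log2 fold change 2.17, limma adjusted p = 0.124). Slc51a averaged 425 and 928 TPM and Slc51b 348 and 713 TPM, both subunits of the basolateral bile acid exporter, and Amn, a subunit of the vitamin B12 receptor, 126 and 173 TPM. The part of these position markers in the difference of Lct was not tested.

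Genes that mark the suckling intestine, when lactase is high, did not pass the test. Of 4 such genes none was called by limma (2 higher at an unadjusted p under 0.05). The median log2 fold change was 0.45, beside 0.16 for all tested genes. After rescaling without alpha-defensin, mitochondrial and 18S-like genes the median was 0.17, beside −0.13 for all. Of the 4 genes 3 were then positive (34.7% of all). Fcgrt, the neonatal Fc receptor, averaged 36.6 ± 5.80 and 65.3 ± 5.41 TPM without overlap (log2 fold change 0.83, limma adjusted p = 0.0935), Glb1, the lysosomal β-galactosidase, 21.1 and 30.6 TPM, Ass1 7.17 and 7.34 TPM, and Prdm1, a repressor of adult enterocyte genes, 2.99 and 4.40 TPM. Arg2, higher after weaning, averaged 97.0 ± 15.6 and 65.1 ± 19.5 TPM with overlap (log2 fold change −0.60).

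Summed levels of genes of other cell types are given beside these results. Summed over 5 Paneth cell genes, the WT libraries held 46613 to 55596 TPM and the libraries labelled TLR4ΔIEC 6832 to 34585 TPM, and 5 goblet cell genes summed to 7092 to 7569 and 10062 to 13549 TPM. Sums of 5 immune genes were 559 to 748 and 53.5 to 366 TPM, those of 4 stem cell genes 224 to 229 and 52.2 to 197 TPM, and those of 5 stromal genes, which overlapped, 174 to 428 and 113 to 338 TPM. Most of the immune sum was Jchain, which averaged 600 TPM in WT and 188 TPM in TLR4ΔIEC. Cd3e also had a lower mean in TLR4ΔIEC (8.67 and 4.67 TPM). Cd79a (10.9 and 24.9 TPM), Ptprc (9.33 and 10.3 TPM) and Itgam (1.82 and 2.19 TPM) had higher means. Most of the stem cell sum was Olfm4 (196 and 83.7 TPM). Within TLR4ΔIEC each of the Paneth and stem cell genes was highest in replicate 1. Lyz1, a Paneth cell gene, stood at 6637, 1314 and 1968 TPM in TLR4ΔIEC replicates 1, 2 and 3, and Olfm4 at 164.9, 39.2 and 47.0 TPM. Among the goblet genes Spink4 had a lower mean in TLR4ΔIEC (2658 and 2035 TPM). None of the genes in these sums was called by limma. At an unadjusted p under 0.05 there were 5 Paneth, 2 stem and 1 immune gene lower and 4 goblet genes higher. Of all 13458 tested genes 2847 passed that cut. The part of these cell types in the results on the disaccharidases was not tested.

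By Pearson correlation of log2(TPM + 1) over the 6 libraries, given as a description, the genes most like Lct were Slc23a1, a vitamin C transporter (r = 0.978), Cyp2b10, a cytochrome P450 (0.977), Ugt2a3, a glucuronosyltransferase (0.975), and Wars2, a mitochondrial tRNA synthetase (0.974). Of these Ugt2a3 was called lower, from 13.6 to 0.860 TPM (limma adjusted p = 0.0316, and 0.0511 to 0.172 without WT replicate 2, WT replicate 3, TLR4ΔIEC replicate 2 or TLR4ΔIEC replicate 3, where the call was lost). Slc23a1 averaged 7.05 and 0.163 TPM. Cyp2b10 followed the order of Lct within WT, at 31.7, 27.0 and 12.9 TPM, and stood at 0.30, 2.56 and 2.45 TPM in TLR4ΔIEC. The genes most like Sis were Dnajc21 (0.989), Birc6 (0.987), Mdm2 (0.983) and Mpp5 (0.966). Those most like Mgam were Tle6 (0.989), Atpaf1 (0.985), Usp20 (0.979) and Igflr1 (0.979), and those most like Treh were Isca2 (0.997), Bcl7c (0.996), Fadd (0.996) and Prrc2a (0.995). No gene was in more than 1 of these lists. Among the disaccharidases, r was −0.70 between Lct and Treh, −0.53 between Lct and Sis, 0.31 between Sis and Mgam and 0.05 between Lct and Mgam, over 6 libraries of which 3 carry each genotype.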

How the data were processed

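Per the labels' protocols, total RNA was isolated by TRIzol and DNase I treatment, its quality was measured on a Bioanalyser, and standard Illumina libraries were prepared. The build GRCm38.p5 and the tools fastp, HISAT and RSEM are named, without versions, in the submitters' processing notes. The file headers give TPM for every gene, as the authors deposited them, and the authors' group means were left out. Because each library is scaled to the same total, a gene that takes a large share lowers the others, and read depth cannot be recovered from TPM, so no counting interval is given. The sample titles gave genotype and replicate number, and none of the 6 libraries was left out.

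Testing used log2(TPM + 1) of genes that averaged 1 TPM or more, fitted by limma 3.58.1 (R 4.3.3; lmFit, eBayes with trend, two-sided, genotype as the single term, Benjamini-Hochberg over all 13458 tested genes, threshold 0.05). Ratios between members and levels relative to the mean of the epithelial list were compared by exact two-sided permutation tests over libraries. Since replicate numbers tie no animals together, the main fit has no block. Groups were called apart where all 3 libraries of one genotype lay above all 3 of the other.

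The 4 genes and the gene lists were chosen with earlier results of these data known. Named were the 4 genes, Tlr4, from each described list the members past the threshold, filled up to the 4 with the highest mean TPM, and for each of the 4 genes the 4 tested genes with an official symbol and the highest correlation. Some genes that this rule names are not reported here. Neighbours in the genome and genes said to be chosen after their values were seen are additions, as are the members of other lists that are named as at or near 0. As alternatives, the pseudocount was set to 0.1 or 5 TPM, the filter was removed or raised to 5 TPM, and values were scaled by median-of-ratios, quantile-normalized, or rescaled without alpha-defensin, mitochondrially encoded and 18S-like genes (Rn18s, Cmss1 and Gphn), and the fit was repeated without trend, with a replicate block, and without each library in turn. For ratios the alternative was a pseudocount of 1 TPM, and for relative levels the list of brush border structure. Gene coordinates are those of GENCODE M21 (GRCm38), and upstream sequences are RefSeq's (GRCm38.p6). Figures were drawn with matplotlib 3.10.9.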

Additional observations from a re-analysis of the deposited data

How the results depend on the processing

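The log2 fold change of Lct was negative in each of 15 alternatives, from −6.35 to −3.18, and the limma adjusted p ran from 0.00329 to 0.0978. The call was lost with no filter (log2 fold change −4.93, adjusted p 0.0978), where 26866 genes were tested, and with the replicate block (−4.93, adjusted p 0.0579). Leaving out 1 library gave −5.44 to −4.63, and the call was lost without WT replicate 2, TLR4ΔIEC replicate 2 or TLR4ΔIEC replicate 3. It was kept without WT replicate 1 (adjusted p 0.0347), WT replicate 3 (0.00329) or TLR4ΔIEC replicate 1 (0.0193). Sis turned to −0.029 under median-of-ratios scaling, −0.15 under quantile normalization and −0.20 after rescaling without alpha-defensin, mitochondrial and 18S-like genes; the median of all tested genes also moved, from 0.16 to 0.03, 0.02 and −0.13. Mgam, at −0.01 with all libraries, ran from −0.12 to 0.077 with 1 library left out, being positive without WT replicate 2 (0.06), TLR4ΔIEC replicate 1 (0.02) or TLR4ΔIEC replicate 2 (0.077). Neither gene passed in any alternative. Treh kept its direction and its side of the threshold in all 15. The 6 ratios and the 4 levels relative to epithelial genes kept their direction in each of the 7 alternatives tried, but with 1 library left out they have no test.

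The number of genes called was 16 (6 higher, 10 lower), 0 with no filter (3377 at an unadjusted p under 0.05), 7 at a mean of at least 5 TPM and 1 with the replicate block. It ran from 0 to 367 with 1 library left out: 32 without WT replicate 1, 0 without WT replicate 2 (1681 at an unadjusted p under 0.05), 3 without WT replicate 3, 367 without TLR4ΔIEC replicate 1, 0 without TLR4ΔIEC replicate 2 (2651) and 5 without TLR4ΔIEC replicate 3. Called higher and lower were 3 and 15 under median-of-ratios scaling, 4 and 14 under quantile normalization and 3 and 11 after the rescaling. The cause of these changes was not tested. Deviations of libraries with the same replicate number correlated at −0.04, 0.04 and 0.12, so the numbers were not taken to pair the mice. TPM keep no depth, which limits what can be said of genes near 0, such as Lct in the libraries labelled TLR4ΔIEC.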
